A study of Mus musculus with 8 samples.

Results

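The mRNA of the mTOR complexes, the AKT kinases and the PHLPP phosphatases was followed in AML12 mouse hepatocytes treated with irisin. The group holds 10 genes, Mtor, Mlst8, Deptor, Rptor, Rictor, Mapkap1, Akt1, Akt2, Phlpp1 and Phlpp2, out of 21612 gene symbols that could be assigned to probes of the array. Its members are all probes whose transcript accession maps to 1 of these genes, 15 of 39429 probes. A single probe stood for 7 genes, while Mapkap1 and Phlpp2 had 2 probes each and Akt2 had 4. The matching of probes to genes used no measured value, but the genes were listed with earlier results of these data known. Rictor and Phlpp1 are named in the study as regulators inferred from these arrays, and such an inference reads transcripts downstream of a protein and not the level of its own mRNA.

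AML12 is a hepatocyte line from the liver of a mouse transgenic for human TGF-alpha, and the labels give no other allele. Irisin, a peptide cleaved from FNDC5, was a commercial preparation. The 4 control samples were of cells kept without irisin and the 4 irisin samples of cells given 0.5 µg/ml irisin for 24 h, all of them in DMEM F-12 with 10% fetal bovine serum. Total RNA of each sample was labeled with Cy3 and hybridized to an Agilent array of its own. The control arrays were on 1 slide and the irisin arrays on another, each slide scanned separately. In every value below the treatment therefore cannot be told apart from slide and scan. Nothing in the labels says that the samples of a group came from separate cultures, and the p-values measure the spread between these samples, which may be technical.

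The kinase mTOR works in a pair of complexes that share the subunit MLST8 and the inhibitor DEPTOR. In mTORC1 the scaffold Raptor, encoded by Rptor, presents substrates of protein synthesis, autophagy and lipid synthesis, and the complex is switched on at the lysosome by amino acids through the Rag GTPases and by growth factors through Rheb. In mTORC2 the scaffold Rictor and the subunit SIN1, encoded by Mapkap1, direct mTOR to AKT, SGK and protein kinase C. AKT carries the insulin signal in hepatocytes, where it holds FOXO factors out of the nucleus and so restrains glucose production, and the PHLPP phosphatases remove the phosphate that mTORC2 places on AKT. Much of this control is by phosphorylation, which an mRNA array does not read.

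Each signal is the log2 of a processed signal minus that of its array's 75th percentile, so that 0 is the level of that percentile. Before this scaling the percentile stood at 473 ± 69.4 (SD, n = 4) for control and 784 ± 71.4 for irisin. limma was run on the 24092 probes that either group had well above background on each of its 4 arrays, and a probe was called at a change of at least 1.5-fold with a Benjamini-Hochberg adjusted p under 0.05. Of the hepatocyte markers, 12 of the 13 with a probe were well above background on all 8 arrays. Their summed signal, as a multiple of the 75th percentile, ran from 361 to 388 on the control arrays and from 298 to 343 on the irisin arrays. Of the markers of other cell types, 5 of 7 for cholangiocytes, 4 of 9 for leukocytes, 2 of 8 for stellate cells and fibroblasts and 2 of 6 for endothelial cells were well above background on all 8 arrays. Des, Lrat, Pdgfrb, Dcn, Lum and Reln of the stellate list, Cdh5, Tek and Lyve1 of the endothelial list and Lyz2 and Cd79a of the leukocyte list were not well above background on a single one of them. The summed signals of these lists were 55.6 to 62.2 in control and 58.1 to 61.2 in irisin for cholangiocytes, 12.9 to 15.1 and 11.6 to 13.4 for leukocytes, 0.0598 to 0.0708 and 0.0502 to 0.0539 for stellate cells, and 0.702 to 0.787 and 0.414 to 0.583 for endothelial cells. Over all tested probes, the median log2 change, irisin minus control, was -0.20 in the brightest decile and -0.51 in the dimmest. The marker sums were not adjusted for brightness. The part of other cells in the results was not tested. In cultured cells, fewer cells of a type and less RNA per cell cannot be told apart.

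The transcripts of the complexes, of AKT and of PHLPP were all measurable, and nearly all of them differed between the groups by less than the threshold. All 10 genes had a tested probe, and 14 of the 15 probes stood well above background throughout the 8 arrays. No member probe was called higher, against 0.718% of all tested probes, and 1 of 14, the dimmer Mapkap1 probe, was called lower, against 11.6% of all tested probes. For 11 of the 14 probes the 95% confidence interval of the change lay inside 1.5-fold in both directions. The median change of the member probes was 0.030 on the log2 scale, beside -0.079 for all tested probes. With the brightest probe for each gene, 7 of 10 genes lay above 0 and the median was 0.057, beside -0.063 over 14311 genes. Changes varied with brightness over all tested probes. Deciles 1 to 3 by mean signal, the dimmest, had medians of -0.51, -0.33 and -0.15, with 45.1%, 34.2% and 19.6% called lower. Deciles 4 to 9 had medians from -0.053 to 0.0033 and at most 8.84% called lower. All tested member probes except the dimmer Mapkap1 probe and the dimmest Akt2 probe lay in deciles 4 to 9.

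At an unadjusted p under 0.05, 1 member probe was higher, Mtor, where 6.51% of all tested probes were. At that threshold 3 were lower, the dimmer Mapkap1 probe and a pair of Akt2 probes, where 27.8% of all tested probes were. The groups did not overlap for 1 tested member probe in the higher direction, against 4.21% of all tested probes, and for 2 in the lower direction, against 23.0%.

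**Figure D1:**
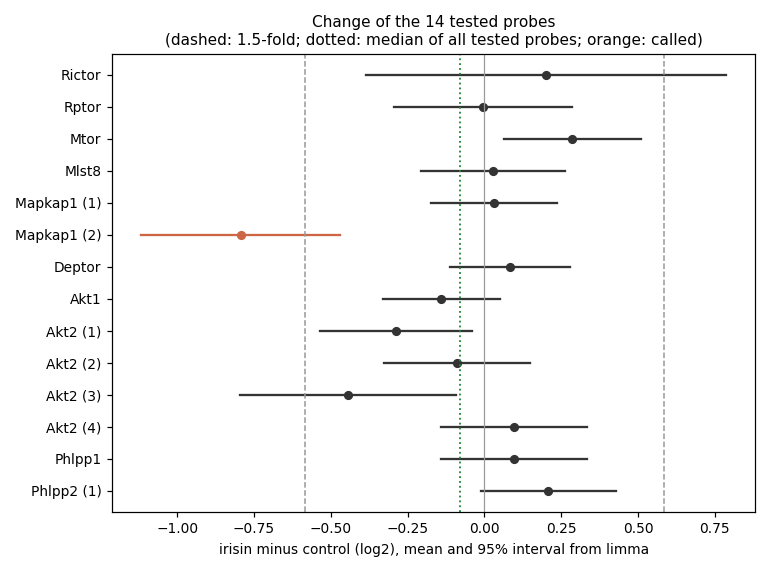
Change of each of the 14 tested probes, irisin minus control on the log2 scale, as points with the 95% confidence interval from limma. Dashed lines mark 1.5-fold, the dotted line marks the median of all tested probes at -0.079, and numbers in brackets tell probes of 1 gene apart in the order of the text. The dimmer Mapkap1 probe, at -0.79, is the single called member, and the Rictor interval, from -0.39 to 0.79, is the widest.

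Mtor encodes the kinase itself. Its log2 signal was -0.82, -0.75, -0.76 and -1.05 on control arrays 1 to 4 and -0.61, -0.36, -0.59 and -0.66 on irisin arrays 1 to 4. Every irisin array lay above every control array. The mean went from -0.84 ± 0.142 (SD, n = 4) to -0.56 ± 0.131, a change of 0.29 (SE 0.10, 95% interval 0.063 to 0.51), or 1.22-fold. The adjusted p was 0.0638 and the change was under 1.5-fold, so Mtor met neither condition for a call. Its unadjusted exact permutation p of 0.0286 is the smallest that 4 against 4 arrays allow. The adjusted p was 0.0324 with normexp background correction and 0.0165 with its offset after scaling, with changes still under 1.5-fold. Tested probes of the same decile of mean signal had a median change of 0.0032.

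Mlst8 encodes the subunit that both complexes hold on the kinase domain. It gave 1.46, 1.46, 1.502 and 1.55 in control and 1.41, 1.82, 1.37 and 1.48 in irisin. The control arrays lay close together, with an SD of 0.039, and irisin array 2 was the highest of all 8. The change of 0.028 (SE 0.11, adjusted p = 0.889) had an interval of -0.21 to 0.26. Deptor, the inhibitor bound to mTOR, gave -0.43, -0.47, -0.55 and -0.33 in control and -0.25, -0.52, -0.35 and -0.33 in irisin. Its groups overlapped, and the change was 0.083 (SE 0.088, adjusted p = 0.572), with an interval of -0.11 to 0.28.

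Rptor, the scaffold of mTORC1, showed the smallest difference of the tested member probes. Its log2 signal was 1.48, 1.61, 1.82 and 1.75 in control and 1.35, 1.96, 1.70 and 1.64 in irisin. The irisin arrays held both the lowest and the highest value. The means were 1.67 ± 0.152 and 1.66 ± 0.249, and the change of -0.0059 (SE 0.13, adjusted p = 0.984) had an interval of -0.30 to 0.28.

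Rictor, the scaffold of mTORC2, varied most among the irisin arrays. It gave -2.95, -2.82, -3.40 and -3.17 in control and -2.39, -3.76, -2.54 and -2.84 in irisin. Irisin array 2 was the lowest of all 8, while irisin arrays 1 and 3 were above every control array. The change from -3.08 ± 0.253 to -2.88 ± 0.617 was 0.20 (SE 0.26, adjusted p = 0.660), and its interval of -0.39 to 0.79 took in changes past 1.5-fold in the higher direction. Without irisin replicate 2 the change was 0.49 with an adjusted p of 0.0397, which is still under 1.5-fold and not called. In processed signal before scaling, irisin array 2 read 50.3, where the other irisin arrays read 152, 139 and 119 and the control arrays 48.3, 68.9, 50.7 and 55.6.

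SIN1, the subunit of mTORC2 that binds its substrates, was read by a pair of Mapkap1 probes of the same transcript accession that disagreed. The brighter probe, A_55_P2046363, gave -1.11, -1.03, -1.03 and -1.27 in control and -1.12, -0.90, -1.15 and -1.14 in irisin. These values overlapped, with a change of 0.031 (SE 0.092, adjusted p = 0.859) and an interval of -0.17 to 0.24. The dimmer probe, A_55_P2046368, gave -4.73, -4.56, -4.06 and -4.11 in control and -5.25, -5.15, -5.09 and -5.15 in irisin. Every irisin array lay below every control array, and the irisin arrays differed little among themselves.

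The dimmer Mapkap1 probe was called lower, from -4.37 ± 0.331 to -5.16 ± 0.0649, a change of -0.79 (SE 0.15, adjusted p = 0.00243), or 0.577-fold. Its processed signal before scaling was 23.9 ± 8.14 in control and 21.98 ± 2.24 in irisin. It lay in decile 2 of the tested probes by mean signal, where the median change was -0.33 and 34.2% of probes were called lower. The call was lost with quantile normalization (-0.49), with cyclic loess (-0.47), with scaling to spike-ins (-0.22), without scaling (-0.056) and with normexp and its offset after scaling (-0.30).

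**Figure D2:**
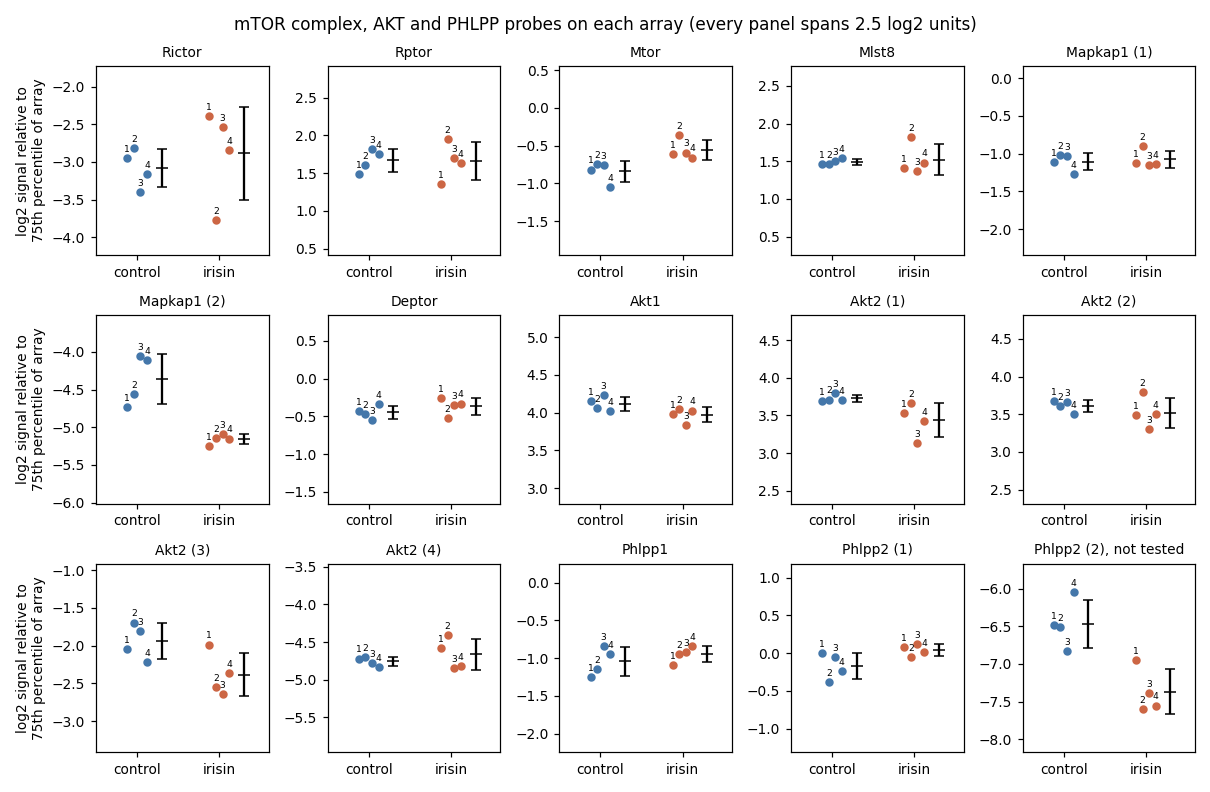
Log2 signal of the 15 member probes, minus the 75th percentile of each array, with control arrays in blue and irisin arrays in orange, each numbered by its replicate. Black marks give the mean ± SD of 4 arrays, and each panel spans the same 2.5 log2 units, so that spread can be compared between panels. Mtor is higher on every irisin array, the dimmer Mapkap1 probe is lower on every irisin array, and Rictor has irisin array 2 at -3.76, below all others.

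Akt1 encodes the AKT kinase best known for growth and survival. It gave 4.15, 4.06, 4.23 and 4.02 in control and 3.98, 4.05, 3.84 and 4.03 in irisin. The groups overlapped, and the change of -0.14 (SE 0.086, adjusted p = 0.292) had an interval of -0.33 to 0.050. The processed signal before scaling was 8212 ± 1407 in control and 12328 ± 1186 in irisin, so the sign of this difference came with the scaling.

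Akt2 encodes the kinase through which insulin acts on glucose and lipid metabolism in liver, and its 4 probes, all matched to the same accession, did not move together. The brightest probe, A_55_P2066518, gave 3.70, 3.71, 3.80 and 3.70 in control and 3.53, 3.66, 3.13 and 3.43 in irisin. Every irisin array was below every control array, by as little as 3.66 against 3.70. The change was -0.29 (SE 0.11, adjusted p = 0.0915; 95% interval -0.54 to -0.040) and did not pass the test. It was -0.19 (adjusted p = 0.214) without irisin replicate 3 and -0.36 (adjusted p = 0.0252) without irisin replicate 2, with no call in either case. Tested probes of the same decile of mean signal had a median change of -0.053. A_55_P2025228, of similar signal, gave 3.68, 3.61, 3.66 and 3.50 in control and 3.49, 3.79, 3.30 and 3.50 in irisin. It had its highest value on irisin array 2, and its change was -0.089 (SE 0.11, adjusted p = 0.623).

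Of the dimmer Akt2 probes, A_55_P2066523 gave -2.04, -1.69, -1.80 and -2.22 in control and -1.98, -2.55, -2.64 and -2.36 in irisin. All irisin arrays but array 1 lay below every control array, and the change of -0.44 (SE 0.16, adjusted p = 0.0679) had an interval of -0.80 to -0.092. Without irisin replicate 1 it was -0.58 (adjusted p = 0.0138), and without control replicate 4 -0.54 (adjusted p = 0.0419), both under 1.5-fold. The median change in the decile of this probe was 0.0033. The last probe, A_66_P135179, gave -4.72, -4.70, -4.78 and -4.84 in control and -4.58, -4.41, -4.84 and -4.81 in irisin. Its values overlapped around a change of 0.096 (SE 0.11, adjusted p = 0.595). This probe lay in decile 3, where the median change was -0.15. Its change was 0.39 (adjusted p = 0.0313) with quantile normalization and 0.41 (adjusted p = 0.0301) with cyclic loess. With normexp background correction it was -0.38 (adjusted p = 0.00407). These changes were under 1.5-fold and not called, but their direction depended on the processing. With the percentile scaling, the 4 probes ran from -0.44 to 0.096 with no call among them. The part of the transcript that each one reads was not analysed here.

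Phlpp1 encodes a phosphatase that takes the phosphate off the hydrophobic motif of AKT, as its paralog Phlpp2 does. It gave -1.25, -1.15, -0.84 and -0.95 in control and -1.09, -0.95, -0.92 and -0.84 in irisin. The lowest values were control arrays 1 and 2, and the highest was control array 3, with irisin array 4 next to it. The change was 0.096 (SE 0.11, adjusted p = 0.591), with an interval of -0.14 to 0.33.

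Phlpp2, read by its brighter probe A_51_P389714, gave -0.0025, -0.38, -0.051 and -0.23 in control and 0.076, -0.045, 0.12 and 0.016 in irisin. All irisin arrays but array 2 were above every control array. The change was 0.21 (SE 0.099, adjusted p = 0.167) with an interval of -0.011 to 0.43. The other Phlpp2 probe, A_55_P2084068, was the member that was not tested, since it was well above background on 2 control and 3 irisin arrays. It gave -6.49, -6.52, -6.83 and -6.05 in control and -6.94, -7.59, -7.39 and -7.55 in irisin. On arrays where it was not well above background these values have no firm order, and no change is given for it. Its processed signal before scaling was 5.43 ± 1.48 in control and 4.84 ± 1.22 in irisin.

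**Figure D3:**
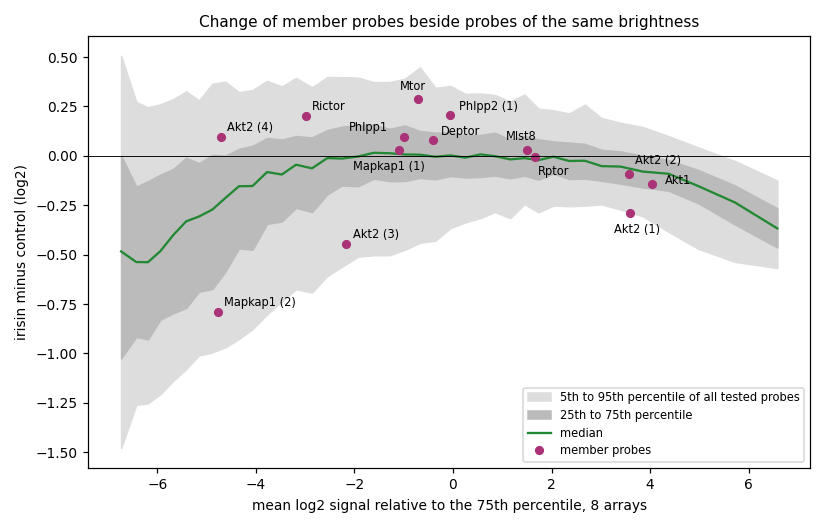
Change (irisin minus control, log2) of the 14 tested member probes against their mean log2 signal over 8 arrays, over the distribution of all tested probes of similar signal. The green line is the median of all tested probes, and the darker and lighter bands are the 25th to 75th and the 5th to 95th percentiles. The median falls below 0 at the dim end, where the called Mapkap1 probe lies, and at the bright end. It is -0.37 in the brightest band, but -0.054 to -0.091 at signals of 3.40 to 4.37, around the Akt1 and brighter Akt2 probes.

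A difference between 2 probes on the same array is the same under any scaling that shifts a whole array by 1 constant, and 3 such differences were compared. Rictor minus Rptor, the scaffold of mTORC2 against that of mTORC1, was -4.44, -4.43, -5.22 and -4.92 in control and -3.74, -5.72, -4.24 and -4.48 in irisin. Irisin array 2 was again the lowest and irisin array 1 the highest. The difference moved by 0.21 with an interval of -0.93 to 1.34 (exact permutation p = 0.686 two-sided, adjusted p = 0.686 over the 3 differences). It turned to -0.062 without irisin replicate 1, to 0.60 without irisin replicate 2, and to -0.047 with normexp background correction. It was 0.29 with quantile normalization and 0.30 with cyclic loess, which do not shift an array by a constant.

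Akt1 minus Akt2 was 0.45, 0.35, 0.44 and 0.32 in control and 0.45, 0.38, 0.71 and 0.60 in irisin. Irisin arrays 3 and 4 were above all others. The shift of 0.15 had an interval of -0.049 to 0.34 (exact permutation p = 0.143, adjusted p = 0.429). Which Akt2 probe was used set its sign, since the shift was -0.051 with A_55_P2025228 and -0.24 with A_66_P135179. With A_55_P2066523, which itself changed by -0.44 where Akt1 changed by -0.14, the shift stayed above 0. Phlpp1 minus Phlpp2 was -1.25, -0.77, -0.79 and -0.71 in control and -1.16, -0.91, -1.04 and -0.86 in irisin. Control array 1 was the lowest, and the shift of -0.11 had an interval of -0.46 to 0.23 (exact permutation p = 0.457, adjusted p = 0.686). None of the 3 differences had an adjusted p under 0.05. The smallest exact p over 70 assignments is 0.0286, so no difference could have passed by itself after adjustment over 3. The interval of Rictor minus Rptor was wide enough to hold a change of over 1.5-fold either way.

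How the arrays are brought to a common level decided the sign of the change for Rptor, Akt1 and 3 Akt2 probes, which lay below 0 with the 75th percentile and above 0 with spike-ins and without scaling. Scaling to the spike-in probes put the median change of all tested probes at 0.50, and no scaling put it at 0.66. On those scales 8 and 11 of the 14 member probes were called higher, where 32.4% and 61.9% of all tested probes were, and no member was called lower, where 362 of the 24092 tested probes were with spike-ins and 0.672% without scaling. These scalings move every probe of an array alike and leave its distance to the all-probe median in place by construction, at 0.37 for Mtor and -0.71 for the dimmer Mapkap1 probe. Quantile normalization does not, and there Mtor was at 0.27 from that median, the dimmer Mapkap1 probe at -0.50, the dimmest Akt2 probe at 0.38 where it had been at 0.17, and Rptor at -0.017 where it had been at 0.073.

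**Figure D4:**
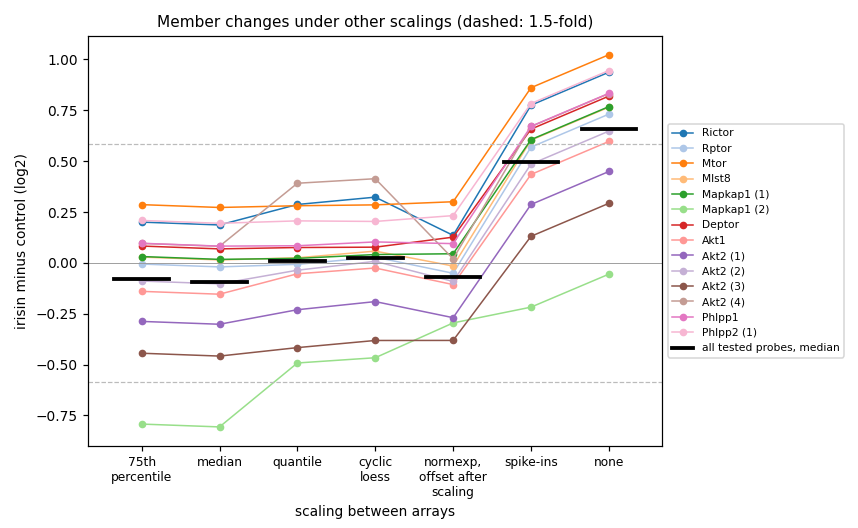
Change (irisin minus control, log2) of the 14 tested member probes under 7 ways of scaling the arrays, each line a probe and each black bar the median of all tested probes. Dashed lines mark 1.5-fold. With spike-ins or no scaling, the members shift upward together with the median of all tested probes, while the dimmer Mapkap1 probe stays below 0 throughout.

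Around these genes, 124 other genes of the pathway were sorted into 8 lists by their place in it, and 116 had a tested probe. Of these, 1 was called higher, Insr, where 0.531% of all tested genes were, and 2 were called lower, Prkce and G6pc, where 10.2% of all tested genes were. At an unadjusted p under 0.05, 12 were higher and 15 lower, where 6.01% and 23.5% of all tested genes were. The median change of the 116 genes was -0.033, and 47 of them lay above 0. Pik3cd, Inpp4b, Trib2, Rragd, Grb10, Prkcb, Foxo4 and Pck1 had no tested probe.

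**Figure D5:**
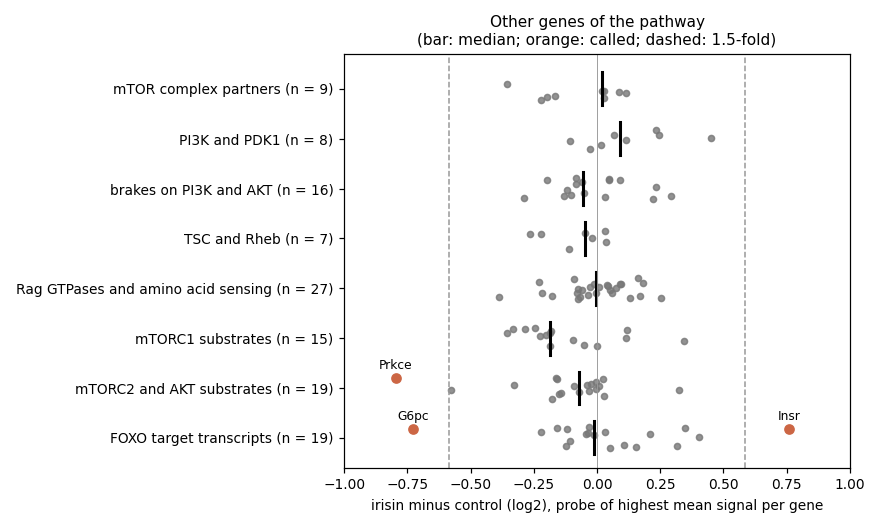
Change (irisin minus control, log2) of the tested genes of 8 pathway lists, each point a gene read by its brightest probe, with the list median as a black bar. Called genes are orange and named, and dashed lines mark 1.5-fold. Apart from Insr at 0.76, G6pc at -0.73 and Prkce at -0.80, no gene was called, and genes of more than 1 list are drawn in each.

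Insr, the insulin receptor that feeds PI3K and AKT and a transcript that FOXO factors induce, gave -2.55, -2.47, -2.52 and -2.48 in control and -1.79, -1.98, -1.44 and -1.77 in irisin. Every irisin array was above every control array by a wide margin. The change of 0.76 (SE 0.11, adjusted p = 0.000652) was 1.69-fold. Of the other Insr probes, 1 changed by 0.64 (adjusted p = 0.000904) and 1 by 0.011 (adjusted p = 0.952), so the probes of this gene disagreed as well. Normexp background correction brought the change to 0.40, or 0.55 with its offset after scaling, both under 1.5-fold.

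G6pc, the catalytic subunit of glucose-6-phosphatase and a transcript that AKT represses through FOXO, gave -5.74, -5.51, -5.31 and -5.47 in control and -6.63, -6.47, -5.93 and -5.90 in irisin. All irisin arrays lay below all control arrays, and the change was -0.73 (SE 0.17, adjusted p = 0.00981). Prkce, a protein kinase C isoform whose turn motif mTORC2 phosphorylates, gave -6.11, -6.41, -6.17 and -5.99 in control and -6.94, -6.53, -7.37 and -7.04 in irisin. Its change was -0.80 (SE 0.16, adjusted p = 0.00443). The Prkce probe was not well above background on all 8 arrays and passed the filter through only 1 group. Both the G6pc and the Prkce probe lay in decile 1 of the tested probes by mean signal, where the median change was -0.51 and 45.1% were called lower. Neither was called with quantile normalization (-0.27 for G6pc and -0.22 for Prkce) with cyclic loess (-0.26 for both), with spike-ins, without scaling or with normexp and its offset after scaling.

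The 9 tested partners of the mTOR complexes had a median change of 0.018. They ran from -0.36 for Prr5 (adjusted p = 0.0215), the PROTOR subunit of mTORC2, to 0.12 for Tti1 (adjusted p = 0.352), which helps fold and assemble PI3K-like kinases such as mTOR. No gene of this list reached 1.5-fold. The 8 tested genes of the PI3K and PDK1 list had a median of 0.091, with 6 above 0. Pik3ca, a catalytic subunit of PI3K, was at 0.45 (adjusted p = 0.0271), or 1.37-fold, and Irs2, an adaptor of the insulin receptor, at -0.11 (adjusted p = 0.777).

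Among 16 tested brakes on PI3K and AKT the median was -0.056. They lay between -0.29 for Ppp2r5b (adjusted p = 0.0258), a regulatory subunit of the phosphatase PP2A, and 0.29 for Inpp4a (adjusted p = 0.0546), a phosphoinositide phosphatase. The 7 tested genes of the TSC and Rheb list had a median of -0.048. Tsc2, which keeps Rheb inactive, was lowest at -0.26 (adjusted p = 0.106). Tbc1d7, its partner in the TSC complex, was highest at 0.036 (adjusted p = 0.874). The Tsc2 probe lay in decile 2 of the tested probes by mean signal, where the median change was -0.33 and 34.2% were called lower. Its change was 0.064 with quantile normalization and 0.086 with cyclic loess. The 27 tested genes of Rag GTPases and amino acid sensing had a median of -0.0055. Their extremes were Sesn2, a leucine sensor, at -0.39 (adjusted p = 0.0296) and Slc38a9, a lysosomal arginine sensor, at 0.25 (adjusted p = 0.125). These are the changes of each gene's brightest probe. Depdc5, a subunit of the GATOR1 complex that restrains the Rag GTPases, was at -0.22 by its brightest probe, but 2 of its 3 other tested probes were called lower, at -1.13 (adjusted p = 0.000770) and -0.64 (adjusted p = 0.00360). Of all tested probes, 11.6% were called lower, as were 45.1% of those in the dimmest decile of mean signal. The deciles of these Depdc5 probes are not given here, and a part of brightness in their calls was not tested. Depdc5 was named after its values were seen, and apart from Insr no other gene of the lists had a called probe besides its brightest.

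The 15 tested mTORC1 substrates had a median of -0.19, beside -0.063 over all tested genes, with 3 above 0 and none called. The medians of the lists were not adjusted for brightness. Pdcd4, an inhibitor of translation that S6 kinase marks for destruction, was at -0.35 (adjusted p = 0.0200), and Lpin1, a phosphatidate phosphatase held out of the nucleus by mTORC1, at 0.35 (adjusted p = 0.0449). For the 19 tested mTORC2 and AKT substrates the median was -0.072, and Prkcd, another protein kinase C, had the largest increase at 0.33 (adjusted p = 0.0269). The 19 tested FOXO target transcripts had a median of -0.011, with 1 called in each direction, Insr and G6pc as given above. At an unadjusted p under 0.05, where 6.01% of all tested genes were higher and 23.5% lower, the FOXO targets had 5 higher and 1 lower, the mTORC2 and AKT substrates 1 and 3, and the mTORC1 substrates 1 and 4. The brakes on PI3K and AKT had 2 in each direction, the Rag and amino acid list 1 higher and 2 lower, the PI3K and PDK1 list 2 higher and 0 lower, the TSC and Rheb list 0 and 2, and the partners of the complexes 0 and 1.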

How the data were processed

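Gene expression in AML12 cells was read on 8 one-color Agilent arrays, 4 control and 4 irisin. The authors extracted RNA with Trizol and RNeasy and deposited, from Feature Extraction 12.0.3.1, signal intensities on a linear scale, background-subtracted and not normalized between arrays. The deposited value table holds the same intensities averaged per probe, within 0.0005%. Here spots marked as outliers were left out (at most 0.463% of an array), spots of a probe averaged, and log2 taken relative to each array's 75th percentile. The files hold no mean raw signal, so the median was used for normexp. Accessions were matched to RefSeq (GRCm38.p6), which named 28663 probes (72.7%). The file headers name mm9 and hold no probe positions, so no coordinates are given.

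Tests used limma 3.58.1 in R 4.3.3 with Benjamini-Hochberg adjustment over all tested probes, and exact two-sided permutation tests over 70 assignments of arrays, done with Python 3.11.15. In lists and differences the brightest tested probe stood for its gene. The fit was tested on simulated data. Alternatives covered background correction, scaling, filters, marked spots, model, threshold, probe choice, a replicate block and each array left out. The members and lists were chosen with earlier results of these data known. All members were named, and of the lists every called gene and the largest increase and decrease of each. The number of arrays limits the precision. Probes of different genes were not compared by level. Of the 5 probes most like Rictor, 1 is not reported here.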

Additional observations from a re-analysis of the deposited data

Results flagged for a closer look

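Among 66 groups of 4 arrays checked for a stray array, 6 held a value far from the other arrays, and chance alone gives about 1 in 20. For the brighter Mapkap1 probe, irisin replicate 2 was at -0.90 where the others lay between -1.15 and -1.12. For the brightest Akt2 probe, control replicate 3 was at 3.80 where the others lay between 3.70 and 3.71. In Phlpp1 minus Phlpp2, control replicate 1 was at -1.25 where the others lay between -0.79 and -0.71.

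Among the other pathway genes, Tbc1d7 was at -0.43 on irisin replicate 1, with the others between -0.10 and -0.057. Slc38a9 was at -1.26 on irisin replicate 1, with the others between -1.70 and -1.64. Prkcd was at -0.34 on control replicate 3, with the others between -0.65 and -0.60. The Rictor value of -3.76 on irisin replicate 2 was less far from its neighbors relative to the spread of the group.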

How the results depend on the processing

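Over all tested probes, 173 were called higher and 2804 lower, so 5.81% of the calls were in the higher direction. That share was 34.8% with normexp and its offset after scaling, 39.6% with quantile normalization, 95.6% with spike-ins, 43.0% with cyclic loess and 98.9% without scaling. It went the other way, to 1.39%, with normexp background correction and to 1.45% with no filter on dim probes. Normexp with the offset after scaling, and each Akt2 probe in turn, were chosen after seeing the data. No member was called higher except with spike-ins (8) and without scaling (11). The count of members called lower was 0 with normexp and its offset after scaling, quantile normalization, cyclic loess, spike-ins, no scaling and a 2-fold threshold. It was 2 with no filter on dim probes, which adds the dimmer Phlpp2 probe, and 1 to 2 with an array left out, the 2 being without irisin replicate 2, again with that probe.

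The pathway genes called higher were 1 and those called lower 2. They became 3 and 0 with cyclic loess, 2 and 0 with quantile normalization, 45 and 0 with spike-ins, 86 and 0 without scaling, 0 and 0 with normexp and its offset after scaling and with a 2-fold threshold, and 5 and 9 with the adjusted p alone. The higher count was 0 with normexp and with the probes of each gene averaged. The lower count was 6 with no filter, 1 with the filter on all 8 arrays, which left out Prkce, 1 with the methods' test, an ANOVA, and 2 to 3 with an array left out.

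Rictor minus Rptor turned to -0.047 with normexp and ran from -0.062 to 0.60 with an array left out. Akt1 minus Akt2 was -0.051 and -0.24 with the Akt2 probes A_55_P2025228 and A_66_P135179 and otherwise kept its sign, at 0.090 to 0.20 with an array left out. Phlpp1 minus Phlpp2 kept its sign in every alternative run, at -0.23 to -0.055 with an array left out.

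Single changes turned in sign as follows. With cyclic loess, Akt2 A_55_P2025228 was at 0.0075, Rptor at 0.028 and Tsc2 at 0.086, and with quantile normalization Tsc2 was at 0.064. With normexp, Akt2 A_66_P135179 was at -0.38, Inpp4a at -0.055, the brighter Mapkap1 probe at -0.0047, Rictor at -0.060 and Tbc1d7 at -0.025. With its offset after scaling, Mlst8 was at -0.016 and Tbc1d7 at -0.018. With spike-ins, Akt1 was at 0.43, Akt2 at 0.49 (A_55_P2025228), 0.29 (A_55_P2066518) and 0.13 (A_55_P2066523), Rptor at 0.57, Irs2 at 0.47, Pdcd4 at 0.22, Ppp2r5b at 0.29, Prr5 at 0.22, Sesn2 at 0.19 and Tsc2 at 0.31. Without scaling, the same probes were at 0.60 for Akt1, 0.65, 0.45 and 0.29 for Akt2, 0.73 for Rptor, 0.63 for Irs2, 0.38 for Pdcd4, 0.45 for Ppp2r5b, 0.38 for Prr5, 0.35 for Sesn2 and 0.47 for Tsc2, and G6pc was at 0.010. With an array left out, Rptor ran from -0.10 to 0.098, Mlst8 from -0.072 to 0.079, the brighter Mapkap1 probe from -0.027 to 0.059, Irs2 from -0.30 to 0.030 and Tbc1d7 from -0.036 to 0.12. The cause was not tested. Of the other values of single genes, 539 kept their direction and side of the threshold, 30 passed the threshold and 16 no longer did.

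Arrays of the same replicate number correlated at 0.13, -0.38, -0.14 and 0.18 in their deviations from the group means. These values show no pairing by number, but with so few arrays, on separate slides, they cannot exclude it. With the replicate number as a block, 172 probes were called higher and 2820 lower, and 0 and 1 members, as without it. A sign-flip test within replicate numbers cannot go below an exact p of 0.125. Slide and scan are the same as treatment here, so no alternative separates them, and probes near background have the least certain values.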

Other observations

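The probes most like Rictor were sought by centering each probe on the mean of its own group and correlating it with Rictor over the 8 arrays. Among the highest Pearson correlations of tested probes outside the members were 0.997 for Rbbp6, a ubiquitin ligase that binds the retinoblastoma protein, 0.996 for Synj2bp, a mitochondrial outer membrane protein, 0.995 for a probe without a symbol, and 0.993 for Pkn2, a kinase of the protein kinase C superfamily that is itself in the list of mTORC2 and AKT substrates. These 4 are from the top 5 of all tested probes and were picked for this value, and the 8 points share the arrays and the scaling.

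All 4 had their lowest centered value on irisin replicate 2, as Rictor did, which their choice by this correlation largely fixed in advance. There they lay at -0.52 for Rbbp6, -0.89 for Synj2bp, -0.53 for the unnamed probe and -0.35 for Pkn2 relative to their irisin mean. Among the other 13 tested member probes, the correlation with Rictor over the same 8 centered values ran from -0.935 for Mlst8, -0.850 for Rptor and -0.759 for Akt2 A_55_P2025228 to 0.743 for Deptor, and was above 0 for Deptor, Akt2 A_55_P2066523 (0.379) and Phlpp2 (0.150), as a description with no test.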
